A study of Mus musculus with 12 samples.

Results

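The replication-dependent histone genes encode the H1, H2A, H2B, H3 and H4 proteins that package newly copied DNA. The genes were all annotated mouse genes of genome build mm9 whose symbol starts with Hist1h, Hist2h, Hist3h or Hist4h, which gave 70 of the 37252 genes annotated on chromosomes 1 to 19 and X. They comprised 6 H1, 20 H2A, 19 H2B, 12 H3 and 13 H4 genes, and 67 of the 70 were annotated as protein-coding. Chromosome 13 held 56 of them, chromosome 3 held 10, chromosome 11 held 3 and chromosome 6 held 1.

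These genes are short, have no introns in their classical form and are transcribed mainly while a cell copies its DNA. Their messages end in a conserved stem-loop, which is bound by the protein SLBP, in place of a poly(A) tail. When myoblasts leave the cell cycle and fuse into myotubes, the demand for new histones falls, and variants such as H3.3, encoded by H3f3a and H3f3b, supply the chromatin of non-dividing cells. H3K4me3, H3K4me2 and H3K27ac mark promoters in use, H3K4me1 lies mainly at enhancers and at promoter flanks, H3K27me3 marks genes silenced by Polycomb proteins, and H3K36me3 covers transcribed gene bodies.

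Chromatin immunoprecipitation and sequencing (ChIP-seq) was done on C2C12, a myoblast cell line from C3H mouse muscle, at passages 15 to 18. The myoblasts grew in 10% serum and were near confluence. The myotubes were taken about 5 days after serum was withdrawn and were separated from unfused cells by mild trypsin. Each of the 6 marks was measured with 1 library in each of the 2 cell types, so that no difference has a replicate check and every ratio compares 2 libraries and not the conditions themselves. No input library was used here. In a bulk library, fewer cells carrying a mark and less of the mark in each cell cannot be told apart.

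The 12 libraries held 1857191 to 7026942 uniquely aligned reads of 34 bases on chromosomes 1 to 19 and X, with the fewest in myoblast H3K27ac. The share of reads that repeated a position and strand was 0.417% to 3.14%. Of the 6 muscle genes Myog, Ckm, Acta1, Myh3, Tnni2 and Actc1, each had more H3K4me3 in myotubes, with ratios of 2.94 (Myog) to 39.5 (Tnni2) after 1 read was added to each count. Alb, Neurod1, Hbb-b1 and Cd3e, which mark other tissues, held 0 to 2 H3K4me3 reads in either library.

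The 3' end was the most uniform feature of the genes, and it sets them apart from other genes irrespective of how many reads align. A stem of 6 base pairs around a loop of 4 bases was searched in the 100 bases after the annotated stop codon. It was present in 63 of the 67 genes with a stop codon (94.0%), against 1188 of 21836 other protein-coding genes (5.44%). It began 22 to 59 bases after the stop codon, with a median of 31.0. The most common form occurred in 39 genes of all families but H4, a form with an A at the end of the loop in 9, and a form with another stem in 8 genes, all of them H4. These forms, and 1 of the rarer ones, are printed with their flanks, 5′ to 3′ and as DNA, because they tie the genes of distant chromosomes together; capitals mark the arms of the stem.
Hist1h1b, chr13:21871706-21871721, minus strand: cccaaaGGCTCTtttcAGAGCCacctaga
Hist2h3b, chr3:96073058-96073073, plus strand: cacaaaGGCTCTtttcAGAGCCacctacg
Hist1h2bb, chr13:23839072-23839087, plus strand: cccaaaGGCTCTtttaAGAGCCacccaca
Hist1h4h, chr13:23623327-23623342, plus strand: accaaaGGCCCTtttcAGGGCCgcccaca
Hist4h4, chr6:136752519-136752534, minus strand: cacaaaGGCCCTtttcAGGGCCcacaaag
Hist1h4b, chr13:23849235-23849250, plus strand: acaaaaGGTCCTtttcAGGACCactcact
Hist1h1t, chr13:23788394-23788409, plus strand: cccaaaGGCTCTtttaAGAGCCacttaca
The coordinates are those of the stem and loop in build mm9. Hist1h1b and Hist2h3b, on chromosomes 13 and 3, show the most common form. Hist4h4 on chromosome 6 and Hist1h4h on chromosome 13 had identical stems and loops, and the testis gene Hist1h1t had the same stem and loop as Hist1h2bb. No such stem-loop was found in these 100 bases for Hist2h2be, Hist2h2bb, Hist1h2an and Hist1h2al. The search covered only the bases after the annotated stop codon.

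The promoters differed between families. In the 250 bases upstream of the TSS, CCAAT (either strand) occurred in 58 of 70 histone genes (82.9%) and in 33% of all 22350 protein-coding promoters. It was present in 19 of 19 H2B, 19 of 20 H2A, 6 of 6 H1 and 10 of 12 H3 genes, but in 4 of 13 H4 genes. The octamer ATTTGCAT (either strand), the site of the POU factor OCT1 encoded by Pou2f1, occurred in 9 H2B and 7 H2A genes and in none of the 31 genes of the other families, against 1.58% of all promoters. TATAAA on the gene's strand occurred in 26 of 70 genes (37.1%), against 7.91%. The E-box CACGTG (either strand) occurred in 0 of 70 genes, against 6.33%. The letters GGTCCG were chosen after the H4 promoters had been seen, and they occurred, on either strand, in 11 of 13 H4 genes, in 2 of the 57 others and in 9.06% of all promoters. The following 5 promoters show these differences in the 150 bases before the annotated TSS (mm9, gene's strand, 5′ to 3′); capitals mark CCAAT, the octamer, TATAAA and GGTCCG on either strand, except TATAAA, which was marked on the gene's strand.
Hist1h2bb, chr13:23838453-23838602, plus strand: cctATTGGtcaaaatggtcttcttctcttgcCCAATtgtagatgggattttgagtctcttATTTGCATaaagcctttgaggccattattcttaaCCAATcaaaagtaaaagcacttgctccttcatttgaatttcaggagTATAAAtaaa
Hist2h2bb, chr3:96073494-96073643, plus strand: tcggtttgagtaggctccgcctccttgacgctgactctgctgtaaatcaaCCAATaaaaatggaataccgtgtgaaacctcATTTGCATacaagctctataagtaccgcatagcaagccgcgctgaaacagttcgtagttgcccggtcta
Hist1h1b, chr13:21872495-21872644, minus strand: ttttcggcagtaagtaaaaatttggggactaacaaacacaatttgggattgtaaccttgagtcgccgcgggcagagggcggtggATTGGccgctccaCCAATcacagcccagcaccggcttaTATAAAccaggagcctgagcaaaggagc
Hist1h1t, chr13:23787530-23787679, plus strand: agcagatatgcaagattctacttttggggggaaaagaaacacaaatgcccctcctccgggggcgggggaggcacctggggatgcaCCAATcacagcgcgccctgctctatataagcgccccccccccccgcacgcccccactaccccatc
Hist1h4h, chr13:23622769-23622918, plus strand: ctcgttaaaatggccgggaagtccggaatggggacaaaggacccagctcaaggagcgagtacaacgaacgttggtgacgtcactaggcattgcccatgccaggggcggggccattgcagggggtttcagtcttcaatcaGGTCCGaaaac
Hist1h2bb and Hist2h2bb, which encode H2B, held both CCAAT and the octamer. The H1 genes Hist1h1b and Hist1h1t held CCAAT and no octamer, and Hist1h4h held GGTCCG alone. A match is a run of letters and not a measured site. CpG dinucleotides were frequent around the histone gene starts: their observed over expected ratio in the window of 500 bp either side of the TSS had a median of 0.880, with a range of 0.454 to 1.14, against 0.564 over all promoters.

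How many reads can be placed at a histone gene depends on how much of its sequence occurs once in the genome, because the deposited reads are unique alignments. Over 193690 random positions of the genome, 84.6% of 34-base reads were unique. In the window of 500 bp either side of the TSS, the median over the 70 genes was 65.6%, and over all protein-coding promoters it was 100%. The share was under 50% in 22 histone genes (31.4%) and in 6.74% of all promoters. When reads with 1 mismatch to another place were also counted as not unique, 32 histone genes were under 50%. The H1 genes were the most unique family, with a median of 91.4% and 0 of 6 genes under 50%, and the H2A genes the least, with 49.0% and 11 of 20. In H2B the count was 7 of 19, in H3 2 of 12 and in H4 2 of 13.

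No read of 34 bases was unique around Hist1h2bq, Hist1h2ao, Hist1h2ap and Hist1h2br, and only 4.70% were around Hist1h4m, 3.85% around Hist1h4n and 5.25% around the pseudogene Hist2h3c2. Hist1h2bq and Hist1h2ao lie in a stretch of 10523 bases, chr13:21893127-21903649, that is repeated without a difference in inverted orientation at chr13:21924031-21934553, where Hist1h2ap and Hist1h2br lie. Of Hist1h4m and Hist1h4n, only the annotated start and the first bases lie in the exact match, and the rest of each gene lies beyond its end. The 60 bases before the starts of the 2 H2A copies show why no read can be assigned to one of them.
Hist1h2ao, chr13:21902176-21902235, plus strand: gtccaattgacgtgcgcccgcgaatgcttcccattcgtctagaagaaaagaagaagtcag
Hist1h2ap, chr13:21925445-21925504, minus strand: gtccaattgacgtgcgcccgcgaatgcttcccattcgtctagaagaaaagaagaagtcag
The other genes under 50% were Hist2h2aa1, Hist2h2aa2 and Hist2h3c1 on chromosome 3 (28.5% to 30.1%), and Hist1h2ad, Hist1h2ae, Hist1h2bf, Hist1h2ah, Hist1h2bk, Hist1h2ag, Hist1h2bj, Hist1h2ac, Hist1h2bc, Hist1h2bp, Hist1h2ai and Hist1h2al on chromosome 13 (40.2% to 49.5%). Over the 70 genes the unique share and the number of reads rose together in each library, with Spearman's rho from 0.297 in myoblast H3K27ac to 0.700 in myoblast H3K4me1. Low read counts at these genes are therefore given with the unique share and not as low levels of a mark.

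**Figure D1:**
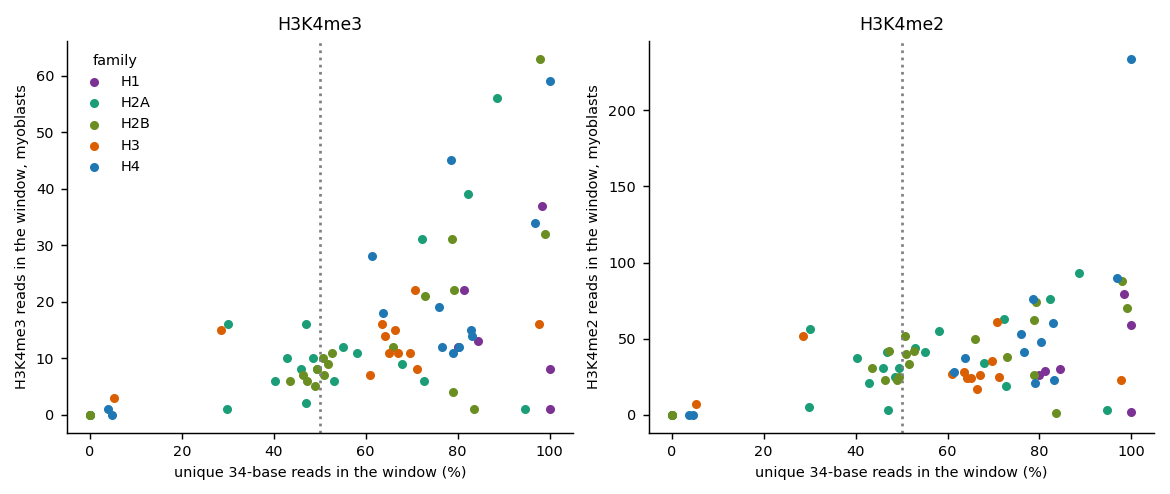
Reads within 500 bp of the TSS of each of the 70 histone genes in myoblasts (y axis; H3K4me3 left, H3K4me2 right) against the share of 34-base reads in that window that occur once in the genome (x axis, %), with 1 point per gene coloured by histone family. The points at 0% to 5.25% hold few or no reads of either mark, and the 22 genes left of the dotted line at 50% are mostly H2A and H2B genes.

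The windows also overlap each other. The 70 windows formed 53 separate promoter regions, because 15 regions held 2 genes and 1 held 3. An H2A and an H2B gene shared 14 regions with 29 genes, most as divergent pairs, and the 2 genes of such a pair share most of their reads. The annotated start was the start codon in 8 of the 66 genes with an annotated start codon, so that no 5' untranslated stretch is annotated for them. Hist1h2be (chr13:23675611-23712993, minus strand) has 2 annotated starts. The one used here, taken because it held the most H3K4me3, lay 35168 bases from the start codon. A window on that start codon held 11 H3K4me3 reads in myoblasts and 28 in myotubes, against 32 and 62 at the start used, which was chosen by this mark.

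Most histone genes carried the marks of active promoters in both cell types. Levels are given as a fold of the genome mean, which is the number of reads in the window over the number that the library's mean density gives for 1000 bases. A gene was called above the genome mean where the lower bound of its exact Poisson 95% interval was above 1. These intervals cover counting error only, and 3 reads in a window correspond to 1.09 to 4.13 times the mean, depending on the library. In myoblasts, H3K4me3 was above the mean at 58 of 70 genes (54.4% of all protein-coding promoters), H3K4me2 at 59 (60.5%) and H3K27ac at 59 (50.2%). In myotubes the counts were 60 for H3K4me3 (53.0% of all promoters), 58 for H3K4me2 (58.1%) and 41 for H3K27ac (50.2%). H3K4me1 was above the mean at 21 genes in myoblasts (37.3% of all promoters) and 22 in myotubes (35.4%), near or below the share of all promoters.

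H3K27me3 and H3K36me3 were rarely above the mean. H3K27me3 was above the mean at 1 gene in myoblasts (14.2% of all promoters) and at 0 in myotubes (7.68%). H3K36me3 was above the mean at 1 gene in myoblasts (12.3%) and at 0 in myotubes (7.03%). Summed over the 53 regions, H3K27me3 reached 0.475 times the genome mean in myoblasts and 0.399 times in myotubes, from 75 and 45 reads. H3K36me3 reached 0.575 and 0.360 times the mean, from 91 and 35 reads. From 1 to 2 kb after the TSS, H3K36me3 per unique position was 0.719 times the mean in myoblasts and 0.444 times in myotubes, against 3.02 and 2.30 times at promoters with a myoblast H3K4me3 peak. Most histone genes are shorter than 1 kb, so that this stretch lies mostly beyond their ends and does not measure their gene bodies.

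The median read density of each active mark, without regard to uniqueness, was lower than at other marked promoters. The median H3K4me3 fold over the 70 genes was 10.1 (95% order-statistic interval 7.38 to 12) in myoblasts and 14.7 (10.9 to 17.1) in myotubes. The 10393 protein-coding promoters with a deposited H3K4me3 peak in both cell types had medians of 42.4 and 33.4. For H3K4me2 the medians of the histone genes were 18.5 (15.5 to 24.4) and 14.3 (11.8 to 19.4), against 41.1 and 23.7. For H3K27ac they were 16.5 (12.4 to 20.6) and 3.79 (2.71 to 5.41), against 37.2 and 19.5. Per unique position, and over the 48 genes with at least 50% unique reads, H3K4me3 was 0.403 times the median of 10806 promoters with a myoblast H3K4me3 peak in myoblasts and 0.621 times in myotubes. H3K4me2 was 0.836 and 1.09 times, and H3K27ac was 0.773 and 0.362 times. So H3K4me3 in both cell types and H3K27ac in myotubes stayed well below those promoters, whereas H3K4me2 lay near them. Those promoters were chosen for an H3K4me3 peak in myoblasts and the histone genes were not, though 44 of the 48 had one. The comparison is therefore uneven for H3K4me3.

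**Figure D2:**
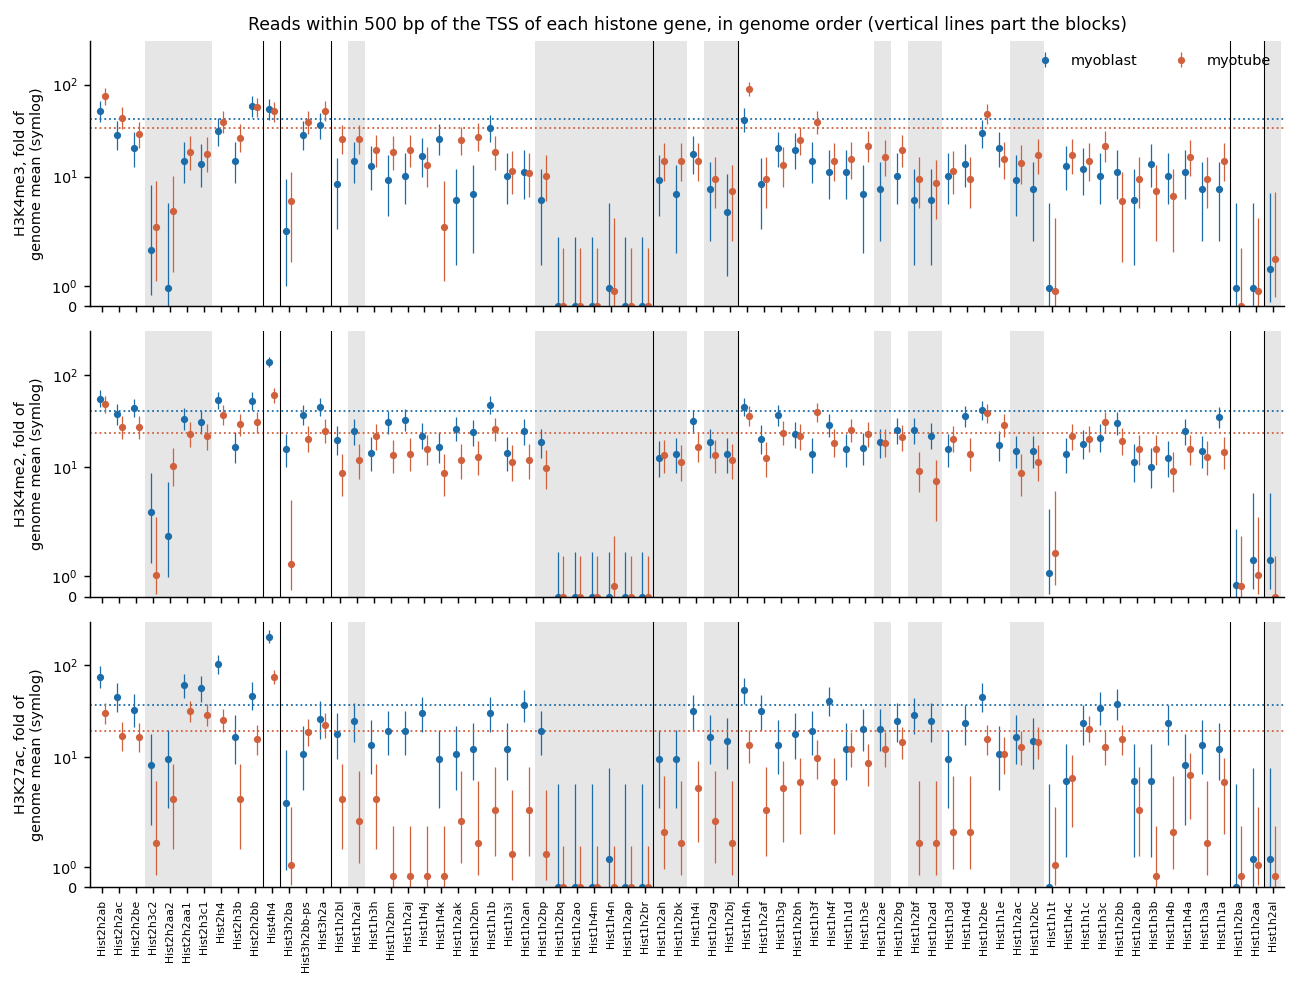
Fold of the genome mean within 500 bp of the TSS (y axis, linear below 5 and logarithmic above) for H3K4me3, H3K4me2 and H3K27ac at each of the 70 histone genes in genome order, in myoblasts (blue) and myotubes (orange). Bars are exact Poisson 95% intervals, grey marks genes with under 50% unique reads, vertical lines part blocks of neighbouring genes, and dotted lines are the medians of the 10393 promoters with H3K4me3 in both cell types. Orange points lie below blue ones for H3K27ac at most genes, and mostly above them for H3K4me3.

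Of the 70 genes, 10 had no H3K4me3 above the mean in either cell type, and 6 of these, Hist1h2bq, Hist1h2ao, Hist1h4m, Hist1h4n, Hist1h2ap and Hist1h2br, follow each other as the longest such run. All 6 lie in or start in the inverted repeat and had 0 to 4.70% unique reads, and together they held 1 H3K4me3 read in each cell type, at Hist1h4n. Of the rest, Hist1h2al lies far from the cluster at chr13:51298057-51298434 with 47.1% unique reads, and held 2 and 3 H3K4me3 reads. Hist1h1t, Hist1h2aa and Hist1h2ba were the only ones with at least 50% unique reads.

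Hist1h1t, Hist1h2aa and Hist1h2ba encode the testis forms of H1, H2A and H2B, which are made in male germ cells. Hist1h1t held 1 H3K4me3 read in myoblasts and 1 in myotubes, and its window is 100% unique. Hist1h2aa also held 1 and 1 reads (94.6% unique), and Hist1h2ba held 1 and 0 (83.5% unique). Their H3K27ac counts were 0 and 2, 1 and 2, and 0 and 1, in the same order of genes. The intervals of all 3 genes held the genome mean for both marks, whereas Hist1h2bc and Hist1h4c, the nearest histone genes on either side of Hist1h1t, held 8 and 14 H3K4me3 reads in myoblasts. Hist1h1t had the highest H3K36me3 of all 70 genes in myoblasts, with 7 reads and 2.55 times the mean (1.02 to 5.25). It was no longer above the mean, and no gene was, with 150 bp or 1 kb either side, with reads not extended, divided by the unique share or with libraries thinned to the smallest. Hist1h2aa had the highest H3K27me3 in myotubes, with 4 reads and 2.04 times the mean (0.556 to 5.22), which is not above the mean by its interval.

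The somatic H1 genes encode the linker histones. Hist1h1b held 37 H3K4me3 reads in myoblasts and 24 in myotubes, or 34.1 and 18.6 times the mean. Its H3K27ac counts were 22 and 7, or 30.3 and 3.79 times the mean. Hist1h1b thus had less of both marks in myotubes, with myotube over myoblast ratios of 0.546 (0.312 to 0.937) for H3K4me3 and 0.125 (0.0452 to 0.303) for H3K27ac. The other somatic H1 genes did not show that loss of H3K27ac beyond counting error. Hist1h1c went from 23.4 to 20.6 times the mean in H3K27ac, Hist1h1d from 12.4 to 12.5, Hist1h1e from 11.0 to 10.8 and Hist1h1a from 12.4 to 5.41. Their H3K27ac ratios were 0.437 to 1.01, and all 4 intervals held 1. H3K4me3 at these 4 genes was 7.38 to 20.3 times the mean in myoblasts and 14.7 to 15.5 times in myotubes. In H3K4me2, 2 of the 5 H1 genes with 20 reads fell past 1.5-fold, against 66.0% of all promoters. Another 2 rose, against 3.74%. Hist1h1a went from 59 to 27 reads with a ratio of 0.413 (0.252 to 0.662), and Hist1h1b from 79 to 48 with 0.548 (0.375 to 0.795). Hist1h1d went from 26 to 47 reads with a ratio of 1.63 (0.990 to 2.74), and Hist1h1e from 29 to 53 with 1.65 (1.03 to 2.69).

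The 14 genes outside chromosome 13 had the higher medians. Their median H3K4me3 fold was 24.4 in myoblasts and 33.7 in myotubes, against 9.22 and 13.6 for the 56 genes on chromosome 13. These medians were not divided by the unique share. The 56 genes include those of the inverted repeat and the testis genes, and the 14 include Hist2h3c2, with 5.25% unique reads. Hist4h4, the single gene of its cluster (chr6:136752589-136752900, minus strand) with 100% unique reads, had the highest H3K4me2 of the list in both cell types. It held 234 reads in myoblasts and 113 in myotubes, or 139 and 60.8 times the mean. It also had the most H3K27ac in both, with 150 and 139 reads or 206 and 75.2 times the mean, and the most H3K4me1 in myoblasts, with 24 reads and 9.48 times the mean (6.07 to 14.1). Its H3K4me3 held at 54.4 and 51.2 times the mean.

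On chromosome 3, Hist2h2bb (chr3:96073644-96082924) had the highest H3K4me3 in myoblasts, with 63 reads and 58.1 times the mean (44.7 to 74.3), and held 73 reads in myotubes. Hist2h2ab held 56 and 96 H3K4me3 reads, and Hist2h2ac and Hist2h2be, in the same promoter region, held 31 and 56, and 22 and 37. Hist2h4 held 34 and 51 reads of H3K4me3 but 75 and 47 of H3K27ac, a fall from 103 to 25.4 times the mean. Hist2h3b held 16 and 34 reads of H3K4me3 and 28 and 54 of H3K4me2. Scaled by total reads, H3K4me3 ratios of these 6 genes were 0.975 (Hist2h2bb) to 1.79 (Hist2h3b), of which Hist2h2ab alone had an interval above 1, and all 6 had lower H3K27ac folds in myotubes. The repeated genes of this group held fewer reads: Hist2h2aa1 16 and 24 of H3K4me3, Hist2h3c1, whose window overlaps it, 15 and 23, Hist2h3c2 3 and 5, and Hist2h2aa2 1 and 6. Hist2h3c1 has 2 annotated starts, and the one used, with most H3K4me3, lies 1197 bases from its start codon. Its window and that of Hist2h2aa1 together span 1016 bases, so that they count nearly the same reads. For Hist2h2aa2, H3K4me2 was 5 and 19 reads, a ratio of 3.43 (1.24 to 11.8) at 29.9% unique reads.

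On chromosome 11, Hist3h2a and the overlapping window of the pseudogene Hist3h2bb-ps held 39 and 67, and 31 and 50 H3K4me3 reads. Their H3K27ac counts were 19 and 42, and 8 and 35, or 26.1 and 22.7 times, and 11.0 and 18.9 times the mean. Hist3h2bb-ps showed the largest rise of H3K27ac of the list, 1.57 with 1 read added, and the interval of the ratio without it (1.72) was 0.784 to 4.29 and held 1. Hist3h2ba (chr11:58762413-58763032) was unlike its neighbours. It held 4 and 7 H3K4me3 reads and 3 and 2 H3K27ac reads, and H3K4me2 went from 26 to 3 reads, a ratio of 0.104 (0.0202 to 0.340). It was also the 1 gene with H3K27me3 above the mean, with 8 reads and 2.92 times the mean (1.26 to 5.75) in myoblasts and 2 reads in myotubes.

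Between the 2 cell types the marks moved in different directions. The ratio of myotube to myoblast reads was taken per gene, scaled by the total reads of each library and with 1 read added to each count, and a change was called past 1.5-fold where the 2 libraries summed to 20 reads or more. For H3K4me3, 18 of 50 such genes rose, against 5.64% of all promoters, and 4 fell, against 30.1%. For H3K27ac, 30 of 37 fell, against 62.0% of all promoters, and 1 rose, against 7.74%. For H3K4me2, 27 of 59 fell, against 66.0%, and 7 rose, against 3.74%. For H3K4me1 only 6 genes had 20 reads, of which 4 fell, against 46.2%, and 1 rose, against 13.1%. No gene had 20 reads of H3K27me3 or H3K36me3. Counted once per promoter region, H3K4me3 rose at 13 and fell at 4 of 40 regions, and H3K27ac rose at 0 and fell at 23 of 28. The shares of all promoters were counted per gene and not per region. They were also not matched for read number. Histone genes held lower median levels of H3K4me3, H3K4me2 and H3K27ac than the marked promoters. Counting error carries a ratio past 1.5-fold more often where reads are few.

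The median ratio of H3K4me3 over the 70 genes was 1.29 (1.20 to 1.43), and over the 10393 promoters with H3K4me3 in both cell types it was 0.802. For H3K27ac the medians were 0.342 (0.272 to 0.393) and 0.533, and for H3K4me2 0.726 (0.645 to 0.865) and 0.570. Relative to those promoters the histone genes thus stood 1.61 times higher in H3K4me3, 1.27 times higher in H3K4me2 and 0.642 times as high in H3K27ac. The direction for H3K4me2 depends on that choice: it fell when scaled by total reads and rose relative to the marked promoters. H3K4me3 rose and H3K27ac fell on both scales. The intervals of single genes were wide. For H3K4me3, 9 of 50 lay above 1 and 2 below. For H3K27ac, 27 of 37 lay below 1 and 0 above. Such intervals were not counted over all promoters, so these counts do not show a trait particular to the histone genes.

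At 33 genes both marks had at least 20 reads. H3K4me3 was above 1 and H3K27ac below 1 at 24 of them (72.7%), a pattern found at 17.4% of 9723 promoters. Both were below 1 at 8 genes (24.2%), against 66.1% of promoters. These promoters were not matched to the histone genes for read number. The marks of low coverage are better described by sums over the 53 regions. H3K4me1 gave a ratio of 0.997 (0.850 to 1.17), H3K27me3 0.840 (0.567 to 1.23) and H3K36me3 0.627 (0.412 to 0.936). The summed reads of the promoters with H3K4me3 in both cell types gave 0.956, 0.721 and 0.906.

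**Figure D3:**
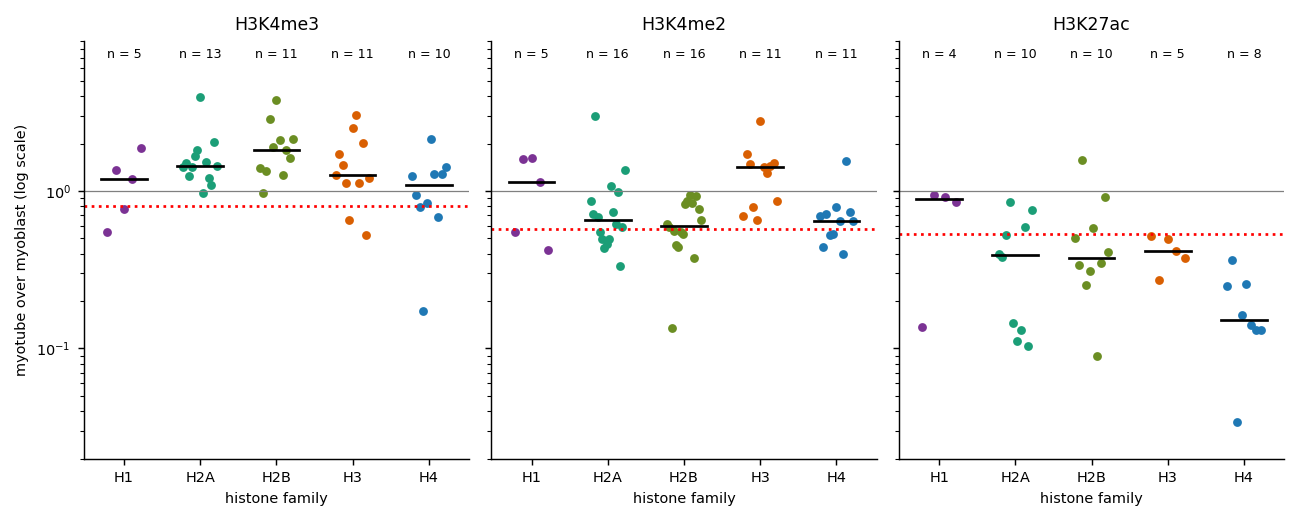
Myotube over myoblast reads of H3K4me3, H3K4me2 and H3K27ac (y axis, log scale, 1 read added to each count) for the histone genes whose 2 libraries summed to 20 reads or more, by family (x axis; n is the number of genes). Each point is a gene, black bars are medians, the grey line is 1 and the red dotted line is the median of promoters with H3K4me3 in both cell types. The H3 genes lie highest in H3K4me2, and the H4 genes lowest in H3K27ac.

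The families differed in how they moved, as a description over genes that share windows. Over all members of a family, the median H3K4me3 ratio was 1.44 for H2A, 1.40 for H2B, 1.26 for H3, 1.02 for H1 and 0.841 for H4. The H4 value is also that of a gene without reads, such as Hist1h4m. Over the 11 H4 genes with at least 50% unique reads the median was 0.939, and the summed reads of H4 genes gave 1.12, so that H4 has no clear direction in H3K4me3. In H3K4me2, H3 genes stood at 1.36 and H1 genes at 1.32, whereas H4, H2A and H2B genes stood at 0.694, 0.679 and 0.655. In H3K27ac, H4 genes stood lowest at 0.197, followed by H3 at 0.308, H2B at 0.337 and H2A at 0.393, with H1 at 0.885. A gene without H3K27ac reads also has 0.393, the H2A value. Over genes with at least 50% unique reads the medians were 0.164 for H4, 0.308 for H3, 0.342 for H2B and 0.382 for H2A. Hist1h1t, among the H1 genes, held 0 and 2 H3K27ac reads. Relative to the promoters with H3K4me3 in both cell types, the direction flipped for H4 in H3K4me3 (1.05), for H4, H2A and H2B in H3K4me2 (1.22, 1.19 and 1.15) and for H1 in H3K27ac (1.66). The interval of the H4 median in H3K27ac, 0.131 to 0.393, and that of the H1 median, 0.137 to 1.18, overlap. The upper bound for H4 is the value of a gene without reads.

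Single genes showed larger changes than these medians. The largest rise of H3K4me3 among genes with at least 30 reads was at Hist1h2ak, from 6 to 32 reads with a ratio of 4.49 (1.85 to 13.1), and its divergent partner Hist1h2bn went from 7 to 35. In the same windows H3K4me2 went from 44 to 22 reads at Hist1h2ak and from 40 to 24 at Hist1h2bn. The largest fall of H3K4me3 was at Hist1h4k (chr13:21842063-21842374, minus strand), from 28 to 5 reads with a ratio of 0.150 (0.0453 to 0.394). Hist1h4h (chr13:23622919-23623388) had the highest H3K4me3 of the list in myotubes, with 116 reads and 90.0 times the mean (74.4 to 108), after 45 reads and 41.5 times in myoblasts. Its H3K27ac fell from 53.7 to 13.5 times the mean. Among genes with at least 30 reads, Hist1h3f rose most in H3K4me2, from 23 to 73 reads with a ratio of 2.86 (1.77 to 4.80), and its H3K4me3 went from 16 to 50 reads. Its annotated start lies 433 bases before the start codon, and the window on the start codon gave 19 and 42 H3K4me2 reads. The largest fall of H3K4me2 among genes with at least 30 reads was at Hist1h2ad, from 37 to 13 reads, and Hist3h2ba, with 29 reads in all, had a lower ratio of 0.104. The largest fall of H3K27ac among genes with at least 30 reads was at Hist1h2an, from 27 to 7 reads with a ratio of 0.102 (0.0375 to 0.240). The highest H3K4me1 in myotubes was at the start used for Hist1h2be, with 17 reads and 6.93 times the mean (4.04 to 11.1).

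The ratio of H3K27ac differed along chromosome 13. Genes with neighbours within 100 kb were joined into blocks. In the first block, from Hist1h2bl to Hist1h2br (chr13:21807632-21929399), 19 genes in 13 promoter regions went from 144 to 43 H3K27ac reads, or from 14.0 to 1.64 times the mean. The ratio was 0.117 (0.0815 to 0.166). The second block, from Hist1h2ah to Hist1h2bj, went from 44 to 20 reads in 3 regions with a ratio of 0.179 (0.0998 to 0.310). The third block, from Hist1h4h to Hist1h1a, held 29 genes in 25 regions and went from 394 to 379 reads, or from 20.6 to 7.80 times the mean, with a ratio of 0.378 (0.328 to 0.437). The intervals of the first and the third block do not overlap, and the first block had the lower ratio. The median unique share was 51.0% over the genes of the first block, 49.0% in the second and 72.7% in the third, and its part in the ratios was not tested. The Hist2 genes on chromosome 3 stood at 0.372 (0.312 to 0.445) and Hist4h4 at 0.365 (0.287 to 0.462), near the third block. The genes of chromosome 11 stood at 0.787 (0.462 to 1.38).

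H3K4me3 and H3K4me2 showed the same order of the first and the third block. H3K4me3 had ratios of 1.08 (0.875 to 1.34) in the first and 1.43 (1.25 to 1.63) in the third block, with intervals that overlap, and H3K4me2 had 0.592 (0.503 to 0.695) and 0.906 (0.828 to 0.993), which do not. The blocks differ in which genes they hold: the third holds 5 of the 6 H1 genes, and the first has the genes of the inverted repeat. Within the first block H3K27ac fell to 1 read in myotubes at Hist1h4j (from 22), Hist1h2bm (from 14) and Hist1h4k (from 7). Genes of the third block differed among themselves in H3K27ac. Hist1h2bf went from 28.9 to 2.17 times the mean, Hist1h2ad from 24.8 to 2.17 times and Hist1h2af from 31.7 to 3.79 times. Of these, Hist1h2bf and Hist1h2ad are a divergent pair and count nearly the same reads. Their shared region held 21 H3K27ac reads in myoblasts and 4 in myotubes. Hist1h2ac and Hist1h2bc, a divergent pair, went from 16.5 to 13 times and from 15.1 to 14.6 times. These 5 genes, and those named for H3K27ac in the first block, were chosen after their values were seen.

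**Figure D4:**
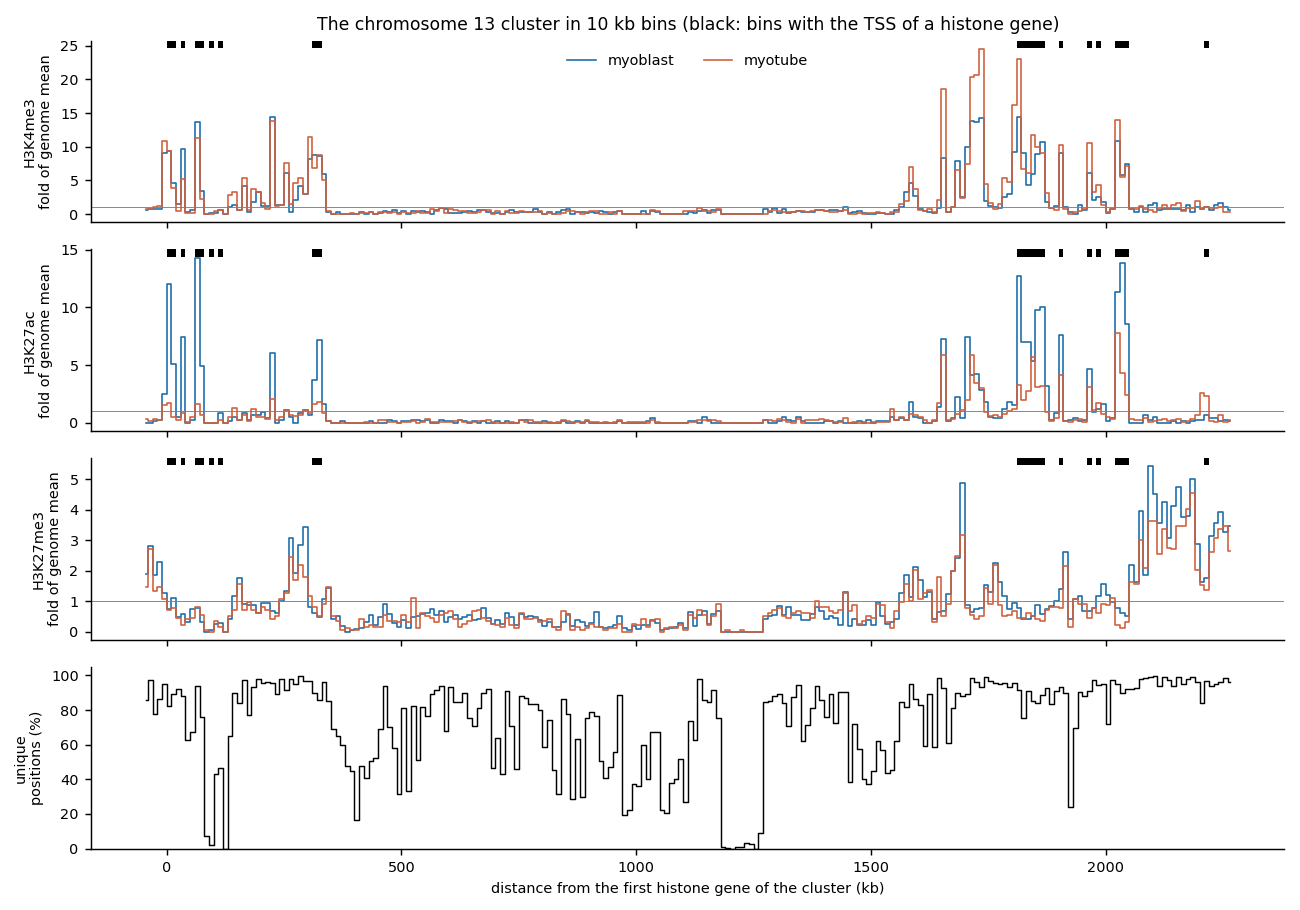
Fold of the genome mean in 10 kb bins across the chromosome 13 cluster (y axes; H3K4me3, H3K27ac and H3K27me3 in myoblasts, blue, and myotubes, orange) and the share of unique positions (bottom, %), against the distance from the first histone gene (x axis, kb). Black marks show the 22 bins with the TSS of a histone gene. H3K27ac is high over histone genes of the first 3 blocks in myoblasts and lower there in myotubes, H3K4me3 and H3K27ac also peak in bins with no histone gene, and H3K27me3 is highest in the last gap.

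Across the cluster as a whole, chr13:21807632-24026720, the active marks were higher over the blocks of histone genes than over the pooled gaps. The 4 blocks span 365 kb and hold 55 genes, and the 3 gaps between them span 1854 kb. H3K4me3 over the blocks was 4.18 times the genome mean (3.98 to 4.39) in myoblasts and 4.42 times (4.24 to 4.62) in myotubes, and over the gaps 1.27 and 1.63 times. The first gap, which holds no histone gene, had H3K4me3 of 3.24 and 3.96 times, against 3.60 and 2.80 times over the first block, so that in myotubes it stood above that block. H3K4me2 was 5.53 and 4.96 times over the blocks and 1.07 and 1.10 times over the gaps. H3K27ac was 4.35 times (4.10 to 4.61) and 1.53 times (1.44 to 1.62) over the blocks, and 0.420 and 0.389 times over the gaps. H3K27ac was thus lower in myotubes over the blocks. The gaps differed among themselves: in the third gap, between Hist1h1a and Hist1h2ba, H3K27ac was 0.187 times (0.118 to 0.280) in myoblasts and 0.524 times (0.447 to 0.611) in myotubes. H3K4me1 was 1.26 and 1.20 times over the blocks and 0.450 and 0.461 times over the gaps. The unique share was 77.5% over the blocks and 70.9% over the gaps.

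H3K27me3 and H3K36me3 were under the genome mean over the blocks in both cell types, at 0.752 and 0.587 times, and 0.651 and 0.403 times. With genes joined within 200 kb, which adds gaps to the blocks, H3K27me3 turned to 1.51 and 1.22 times. H3K27me3 was above the mean in the third gap, between Hist1h1a and Hist1h2ba, at 3.42 times (3.26 to 3.60) in myoblasts and 2.79 times (2.62 to 2.98) in myotubes. That gap holds the solute carrier genes Slc17a1, Slc17a2, Slc17a3 and Slc17a4, and the testis pair Hist1h2ba and Hist1h2aa lies at its far end. The 10 kb bin with this pair had the highest H3K27me3 of the 22 bins with histone genes, 1.75 times the mean in myoblasts and 1.38 times in myotubes. The second gap, of 1487 kb, holds 38 protein-coding genes, of which 33 encode vomeronasal receptors, and was under the mean for H3K27ac (0.383 and 0.325 times).

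H3K4me3 was not confined to the histone genes in the cluster. The 22 bins with histone genes had a median of 8.02 times the mean in myoblasts, and the 210 others 0.461 times, but the highest of those others reached 14.4 times in myoblasts, at Zfp184, and 24.5 times in myotubes, in a bin with no annotated gene. The region is known to hold many transfer RNA genes, which the annotation used here does not list. The letters of the B box, an element inside such genes, were searched on either strand after the bins had been seen. They occurred in 26 of the 210 bins without a histone gene. The median H3K4me3 of those 26 bins was 2.95 times the mean in myoblasts and 4.88 times in myotubes, against 0.369 and 0.426 times in the 184 bins without the letters. In myoblasts, 8 of the 26 and 1 of the 184 bins exceeded the median of the bins with histone genes. The unique share, which falls to 0% in some bins without a histone gene, was not compared between the 2 sets. Whether transfer RNA genes carry the H3K4me3 was not tested.

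**Figure D5:**
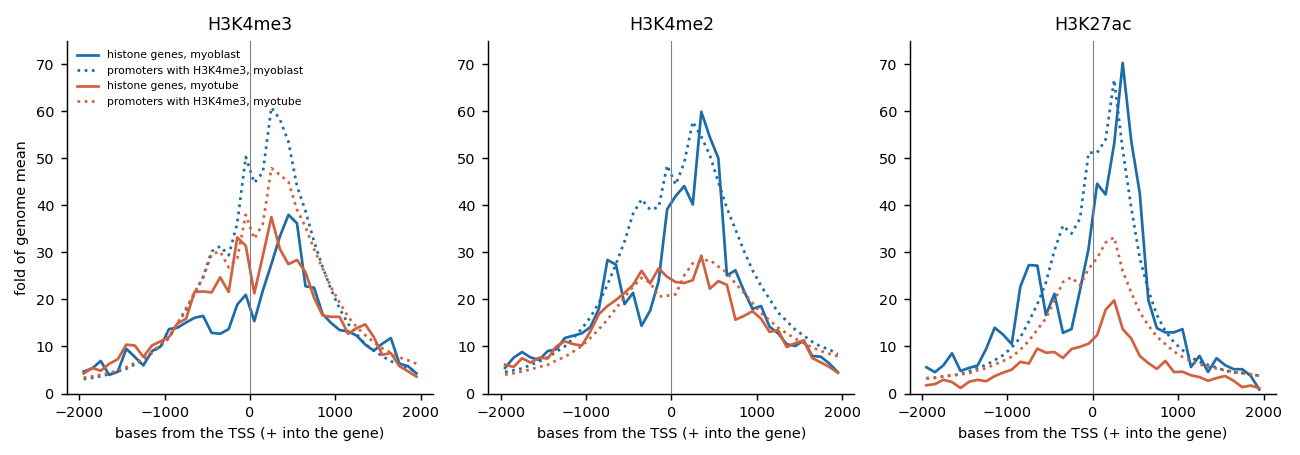
Mean fold of the genome mean in 100 bp bins from 2 kb before to 2 kb after the TSS (x axis, bases; positive into the gene) for H3K4me3, H3K4me2 and H3K27ac. Solid lines are the histone genes with at least 50% unique reads, without the testis genes and per unique position, dotted lines are all promoters with a myoblast H3K4me3 peak, blue is myoblasts and orange is myotubes. In myoblasts the histone gene lines are highest 350 to 450 bases after the TSS and low about 350 bases before it, and in myotubes the H3K4me3 and H3K4me2 lines are nearly even on both sides.

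Around the TSS, the marks of myoblasts lay mainly inside the histone genes, which are about as long as the window after the TSS. In the first 500 bases of the gene, H3K4me2 was 48.1 times the mean per unique position in myoblasts, and in the 500 bases before the TSS 23.3 times. In myotubes both sides were alike, at 24.6 and 24.8 times. H3K4me3 was 27.2 and 15.8 times in myoblasts, and 29.3 and 26.5 times in myotubes. H3K27ac was 52.8 and 20.1 times in myoblasts, and 15.1 and 9.28 times in myotubes. At promoters with H3K4me3 the sides differed less in myoblasts, with 51.3 and 41.3 times for H3K4me2 and 52.6 and 37.7 times for H3K27ac. For H3K4me3 the difference from the histone genes was small, with 52.9 and 35.5 times in myoblasts. In myotubes H3K4me3 at those promoters was 41.7 and 30.7 times, less even than at the histone genes. For H3K27ac in myotubes those promoters had 28.3 and 23.5 times. Inside the gene, H3K27ac of the histone genes was thus near that of the promoters in myoblasts and below it in myotubes. The bases before one gene of a divergent pair are those inside the other, so both sides of the mean include some of the same reads.

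The deposited peak lists gave a similar picture. A peak of H3K4me3 overlapped the window of 58 of 70 histone genes in myoblasts (48.5% of all promoters) and 57 in myotubes (48.6%). For H3K4me2 the counts were 61 (56.1%) and 59 (52.3%), and for H3K4me1 13 (22.2%) and 2 (5.14%). H3K36me3 had 0 in both, against 1.78% and 2.26% of all promoters. In myotubes H3K27ac had 30 (41.8%) and H3K27me3 0 (0.685%). In myoblasts the list deposited with H3K27ac overlapped 0 histone genes (3.89% of all promoters), and that deposited with H3K27me3 overlapped 59 (45.7%). The reads go against these 2 labels: in the list deposited with H3K27me3 the density of H3K27ac reads was 36.4 times the genome mean and that of H3K27me3 reads 0.804 times, and in the list deposited with H3K27ac these were 0.588 and 6.76 times. With the lists exchanged, H3K27ac peaks overlapped 59 histone genes in myoblasts and H3K27me3 peaks overlapped 0.

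Other genes of the histone supply, in 3 lists chosen by function, did not show the higher H3K4me3 of the histone genes. Among 9 replication-independent histone genes (of 10 listed), H3K4me3 rose at 0 and fell at 6 of 9, against 5.64% and 30.1% of all promoters. In lists this small, 0 rises is near the share of all promoters. The median ratio was 0.582 (0.726 relative to the marked promoters). Of the genes for H3.3, H3f3b had 29.5 and 30.3 times the mean and H3f3a went from 35.0 to 20.2 times. The centromere histone gene Cenpa went from 45.2 to 20.2 times. Among 16 genes of histone message processing and of the histone locus, H3K4me3 rose at 0 and fell at 8, against 5.64% and 30.1% of all promoters. The median was 0.659 (0.823 relative to the marked promoters). Npat, which encodes the coactivator of histone transcription, went from 38.7 to 20.9 times, Slbp from 59.0 to 44.2 times and the cyclin gene Ccne1 from 17.5 to 11.6 times. H3K27ac fell at 8 and rose at 1 of the 14 with 20 reads, against 62.0% and 7.74% of all promoters, and Ccne1 went from 19.3 to 1.08 times the mean. Among 5 histone chaperone genes, H3K4me3 fell at 2 and rose at 0, against 30.1% and 5.64% of all promoters. The median was 0.814, which flipped to 1.02 relative to the marked promoters. H3K27ac fell at 4 of 5, against 62.0% of all promoters. Chaf1b, a subunit of the chromatin assembly factor CAF-1, went from 45.4 to 1.08 times the mean in H3K27ac and from 52.6 to 16.3 times in H3K4me3. The difference between these lists and the histone genes was not tested.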

How the data were processed

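Per the labels and the study's methods, the authors aligned the reads to mouse genome build mm9 with the program Mosaik and kept unique alignments for the myoblast marks, and called peaks with MACS. The deposited read files hold counts, 1 line per aligned read, and the deposited peak files hold the peak caller's score. How the myotube files were made, which runs were merged and which control was used are not given in the sources used here. Reads were extended to 150 bp and counted by their midpoint in the 1000 bp around the annotated TSS (Gencode annotation of mm9). Where a gene had several starts, the one with most H3K4me3 was used. Uniqueness was found by counting exact matches of each window's 34-base stretches on both strands of the whole genome. With 1 library per group, no test and no p-value was possible; intervals are exact Poisson, exact binomial (ratios) and order-statistic (medians), and were checked on simulated counts. The promoters compared include the histone genes. Python 3.11.15, numpy 2.4.6, pandas 2.3.3 and scipy 1.17.1 were used. Most genes were named by fixed rules: extremes per mark, low uniqueness, position outside chromosome 13, testis and H1 genes, and listed genes. Neighbours of such genes, and some genes of the chromosome 13 blocks, were named outside these rules. The members and lists were chosen with earlier results of these data known. Windows, read extension, duplicates, scaling, thinning, block distance and peak thresholds were varied.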

Additional observations from a re-analysis of the deposited data

How the results depend on the processing

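Of 380 values recomputed under an alternative, 316 stayed within their counting or order-statistic interval (counts within 1.5 times), 63 moved beyond it and 1 turned its direction; the cause of each shift was not tested beyond what the alternative itself changes. The start codon, the gene's 5' end, merged regions, protein-coding genes alone, single reads per position and the chromosome mean moved none. Scaled by the promoters with H3K4me3 in both cell types, the median ratio of H3K4me2 turned from 0.726 to 1.27, that of H3K4me3 went to 1.61 and that of H3K27ac to 0.642. With 1 kb either side, the H3K4me3 ratio was 1.14, median folds were 14.1 for myoblast H3K4me3 and 2.65 for myotube H3K4me1, and H3K4me1 was above the mean at 40 and 47 genes and H3K36me3 in myoblasts at 0. With 150 bp either side, H3K4me3 medians were 12.3 and 20.7, myotube H3K4me1 1.36 and myoblast H3K36me3 0, with 12 and 9 genes above the mean in H3K4me1 and 0 in myoblast H3K36me3, which was also 0 for reads not extended. With 5 reads added the H3K4me3 ratio was 1.19. That setting gives no value for H3K4me1, H3K27me3 and H3K36me3, whose ratios are of summed reads. The windows on start codons were also added after seeing the data. Divided by the unique share (genes with at least 10%), medians in myoblasts and myotubes were 13.6 and 18.0 for H3K4me3, 29.7 and 21.4 for H3K4me2, 26.1 and 5.77 for H3K27ac and 0.480 and 0.521 for H3K27me3, and 2.76 for myotube H3K4me1; 2 genes were above the mean in myoblast H3K27me3 and 0 in H3K36me3. Over genes with at least 50% unique reads, an alternative added after seeing the data, myotube H3K4me2 was 19.9. Thinned to the smallest library, 27 genes were above the mean in myotube H3K27ac, 4 and 3 in H3K4me1 and 0 in myoblast H3K27me3 and H3K36me3, with medians of 1.37 for myotube H3K4me1 and 0 for myoblast H3K36me3, so that depth limits these counts. With blocks joined within 200 kb, folds over the blocks in myoblasts and myotubes were 3.16 and 3.49 for H3K4me3, 3.77 and 3.33 for H3K4me2, 1.11 and 1.10 for H3K4me1, 2.45 and 1.09 for H3K27ac, and 1.51 and 1.22 for H3K27me3. Within 50 kb they were 4.83 and 5.12, 6.51 and 5.76, 1.41 and 1.34, 5.13 and 1.76, and 0.660 and 0.502 in the same order, with 0.714 for myoblast H3K36me3. Exchanging the myoblast lists gave 59 genes with an H3K27ac peak and 0 with an H3K27me3 peak. Where the peak had to cover the TSS, 16 genes had a myotube H3K27ac peak, and 4 and 0 an H3K4me1 peak; with a score of at least 100, 5 and 1 had an H3K4me1 peak.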
